A study of Arabidopsis thaliana with 22 samples.

Results

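AZI1 and EARLI1 stand in a run of related genes on chromosome 4 of Arabidopsis thaliana that belong to the family of hybrid proline-rich proteins. The run comprised 8 genes, AT4G12470 (AZI1), AT4G12480 (EARLI1), AT4G12490, AT4G12500, AT4G12510, AT4G12520, AT4G12530 and AT4G12550 (AIR1), of 33323 genes in the table. The genes were selected on the measured values, because 4 neighbours had a lower level in the mutant line than in wild type. That difference is therefore given as a description, and the calls on it are counted without being read as a test. Bulk mRNA was sequenced from 14-day-old seedlings, using the top 1.5 cm of the primary root, from which lateral roots had been taken off. The line labelled myb67 carries the myb67-1 mutation of the transcription factor gene MYB67 in accession Col-0, and Col-0 served as wild type (WT). Seeds of both genotypes were sown together and received no treatment, and each library pooled about 40 seedlings. Experiment 1 held 6 libraries and experiment 2 held 5 libraries of each genotype, 22 in all.

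Proteins of this family have a secretion signal, a proline-rich stretch and a cysteine-rich lipid-transfer domain. AZI1, named for its induction by azelaic acid, is known for its part in systemic acquired resistance, in which a local infection primes distant tissue for defence. EARLI1 was named for an early response to aluminium and is also known from responses to cold. AIR1 was named for its induction by auxin in root cultures. MYB67 belongs to the R2R3 class of MYB factors, and the series is concerned with its part in the maturation of phellem, the suberised outer layer of the periderm.

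Total counts ran from 3705515 to 17727642 per library in experiment 1 and from 23190477 to 32091009 in experiment 2. WT replicate 1 of experiment 1 had the fewest, and 27.7% of its counts fell on a ribosomal RNA gene, AT3G41768. That library was the highest of the 6 WT libraries of experiment 1 for all 8 genes of the run, whose summed level was 252 CPM in it (CPM, a count relative to the library total scaled by TMM) and 123 to 168 CPM in the other WT libraries. The transcript of MYB67 itself (AT3G12720) was not lower in the mutant line. It averaged 11.5 ± 1.66 CPM in myb67 and 6.58 ± 0.437 CPM in WT in experiment 1 (SD, n = 6 each), and 18 ± 3.68 CPM in myb67 and 10.6 ± 2.79 CPM in WT in experiment 2 (SD, n = 5 each). The sources used here do not say how the mutation changes the transcript, so the samples are called the libraries labelled myb67. The summed level of 16 photosynthesis genes was 377 to 496 CPM in myb67 and 478 to 1765 CPM in WT libraries of experiment 1, and 2392 to 3468 CPM in myb67 and 1937 to 3020 CPM in WT libraries of experiment 2. WT replicates 3 and 6 held the high values of experiment 1, and without them the log2 fold change of myb67 over WT in experiment 1 was -1.48 for AZI1 and -1.11 for EARLI1, against -1.43 and -1.03 with all libraries. In experiment 1 all 16 photosynthesis genes were lower in myb67 at an unadjusted p under 0.05, against 8.65% of all genes in either direction. At an adjusted p under 0.05 there were 1 by edgeR and 9 by DESeq2, which called 135 and 272 of all 21683 genes in either direction. In experiment 2 all 16 averaged higher in myb67, with 0 at an unadjusted p under 0.05. The genotype difference itself differed between experiments for 16 at an unadjusted p under 0.05, against 8.81% of all genes, and for 0 after adjustment. Of 2 genes taken as root markers, PYK10 averaged 10495 CPM in myb67 and 11126 CPM in WT of experiment 1, and 11578 CPM in myb67 and 12270 CPM in WT of experiment 2. The other, TIP2;3, an aquaporin, averaged 26.6 CPM in myb67 and 24.8 CPM in WT of experiment 1, and 3.58 CPM in myb67 and 1.95 CPM in WT of experiment 2.

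Each gene of the run has 1 exon in the RefSeq annotation of assembly TAIR10.1, and all lie on the minus strand except AIR1. The coding sequences fell into groups by similarity. AZI1 and EARLI1 were identical over 84.12% of the aligned coding columns, AT4G12490 and AT4G12500 over 90.35%, and pairs across these 4 genes over 76.45% to 83.33%. The 4 share a coding start, shown here because these are the 4 genes that chose the run. The first 60 coding bases are given 5′ to 3′ (RefSeq, TAIR10.1, chromosome 4, minus strand), with bases that differ from AZI1 in capitals.
AZI1: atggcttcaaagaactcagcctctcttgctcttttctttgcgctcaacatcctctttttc
EARLI1: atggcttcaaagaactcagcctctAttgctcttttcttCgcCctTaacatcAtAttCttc
AT4G12490: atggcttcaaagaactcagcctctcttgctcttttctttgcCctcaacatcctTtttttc
AT4G12500: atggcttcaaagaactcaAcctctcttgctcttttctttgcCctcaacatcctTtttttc
EARLI1 differed from AZI1 at 7 of the 60 positions, AT4G12500 at 3 and AT4G12490 at 2.

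AT4G12510 and AT4G12520 formed a near-identical pair. Their coding sequences, 390 bases each, differed at 2 positions, T372C and T375C (the base of AT4G12510, the position from 1 at the start codon, then the base of AT4G12520). Both positions lie in the last 30 coding bases (positions 361 to 390), shown with the differing bases in capitals because they are the only coding letters that tell the copies apart.
AT4G12510: aaggttccttcTggTttcgtatgtgcttga
AT4G12520: aaggttccttcCggCttcgtatgtgcttga
Of all windows of 50 bases along each transcript, 51.8% of those of AT4G12510 and 58.1% of those of AT4G12520 occurred elsewhere in the genome. The values of these copies are uncertain, since the authors' treatment of reads that match several places is not stated. No window of AZI1, EARLI1 or AT4G12530 occurred elsewhere, while 6.78% of the windows of AT4G12490, 5.45% of those of AT4G12500 and 11.4% of those of AIR1 did.

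AIR1 has a close copy beside it, AT4G12545, which lies between members of the run and was not among the 8 genes. The pair was identical over 93.15% of the coding alignment and over 85.35% of the windows from 250 bases before to 50 after the transcription start. The first 60 coding bases of both (plus strand) are shown with differing bases in capitals, since both genes are followed together below.
AIR1: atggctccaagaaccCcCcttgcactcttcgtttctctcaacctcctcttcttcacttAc
AT4G12545: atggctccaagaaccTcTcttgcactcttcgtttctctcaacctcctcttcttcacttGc
They differed at 3 of these 60 positions, and 73 windows of 50 bases were common to both transcripts.

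**Figure D1:**
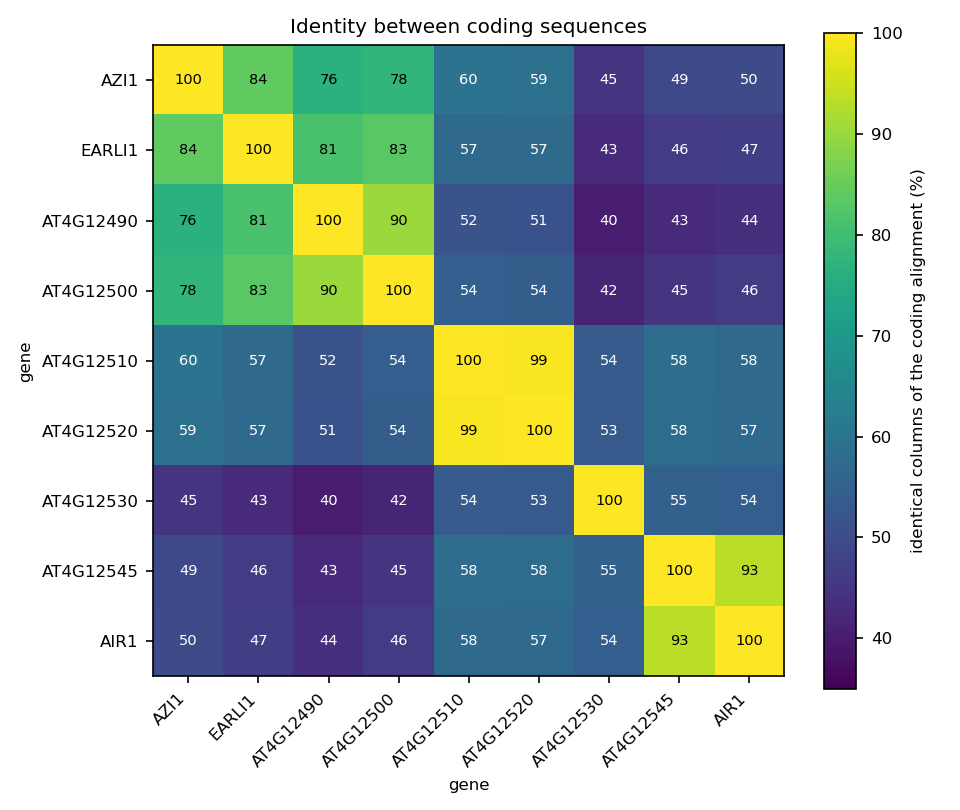
Identity of coding sequences between the 8 genes of the run and AT4G12545, as the percent of identical columns in a pairwise global alignment (colour and number, rounded). AZI1, EARLI1, AT4G12490 and AT4G12500 form a block of 76.45% or more, AT4G12510 and AT4G12520 a pair at 99.49%, and AT4G12545 and AIR1 a pair at 93.15%.

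The 4 genes at the AZI1 end averaged lower in the libraries labelled myb67 in both experiments. In these bulk samples, fewer cells of a type and less RNA per cell cannot be told apart. Genes of suberised cells moved with genotype too. Of 5 suberin genes, GPAT5 (0.35 ± 0.07) and CYP86A1 (0.36 ± 0.07), enzymes of suberin synthesis, were called higher in myb67 over both experiments and FAR4 (-0.33 ± 0.08), another such enzyme, lower (log2 fold change and SE, edgeR adjusted p of 0.00596, 0.00727 and 0.0194). Their summed level was 637 to 764 CPM in myb67 and 587 to 725 CPM in WT in experiment 1, and 914 to 1098 CPM in myb67 and 621 to 956 CPM in WT in experiment 2. Of 3 xylem and 2 phloem genes, 0 were called by edgeR or DESeq2, and 0 had an unadjusted p under 0.05. The part of suberised cells in the level of the run was not tested. Over both experiments, the log2 fold change of myb67 over WT was -1.36 ± 0.22 for AZI1, -1.34 ± 0.16 for EARLI1, -1.16 ± 0.19 for AT4G12490 and -1.09 ± 0.19 for AT4G12500 (SE derived from the F statistic of edgeR). Of 7 genes of the run with enough counts to be fitted, these 4 were lower at an adjusted p under 0.05, the threshold used for a call, and the selection rests on these calls. Among all 21683 genes tested, 0.687% were called lower. Of the 4 called genes, AT4G12500 had the highest adjusted p, 0.000937 by edgeR. AIR1, at -0.82 ± 0.25, was not called (adjusted p = 0.141 by edgeR). It was called when the replicate number of experiment 2 was a block, a fit that called 1.11% of all genes lower. In the authors' deposited table, the log2 fold changes were -1.42 for AZI1, -1.33 for EARLI1, -1.13 for AT4G12490 and -1.08 for AT4G12500.

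AZI1 had 3.26, 7.25, 7.72, 11.9, 4.66 and 2.81 CPM in myb67 libraries of experiment 1, against 42.6, 11.1, 7.97, 12.8, 10.8 and 22.1 CPM in WT libraries. In experiment 2 it had 13.4, 14.6, 21.4, 13.1 and 12.3 CPM in myb67, against 36.4, 36.8, 40.7, 34.7 and 37.8 CPM in WT. The groups overlapped in experiment 1, where myb67 replicate 4 lay above 3 WT libraries, and did not overlap in experiment 2. WT replicate 1 of experiment 1 lay far above the other WT libraries, and without it the log2 fold change of experiment 1 was -1.14, against -1.43 with all libraries.

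EARLI1, the most abundant gene of the AZI1 end, had 11, 18.6, 19.5, 18.9, 16 and 13.2 CPM in myb67 libraries of experiment 1, against 59.4, 27.2, 20.4, 35.8, 24.4 and 38.3 CPM in WT. In experiment 2 it had 18.8, 34.2, 24.7, 28.1 and 22.5 CPM in myb67, against 77.2, 98.9, 82.4, 64.2 and 70.7 CPM in WT. Every myb67 library lay below every WT library of its experiment. EARLI1 was the only gene of the run for which this held in both experiments, as it did for 0.138% of all genes tested. The margin in experiment 1 was narrow, 19.5 CPM in myb67 replicate 3 (85.5 counts) against 20.4 CPM in WT replicate 3.

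AT4G12490 and AT4G12500 were lower in level. AT4G12490 had 1.17 to 2.72 CPM in myb67 and 1.68 to 6.09 CPM in WT in experiment 1, and 1.59 to 3.42 CPM in myb67 and 5.73 to 9.19 CPM in WT in experiment 2. AT4G12500 had 2.64 to 6.35 CPM in myb67 and 4.04 to 12.9 CPM in WT in experiment 1, and 2.7 to 4.96 CPM in myb67 and 6.42 to 9.85 CPM in WT in experiment 2. Both overlapped between genotypes in experiment 1 and did not in experiment 2. For AT4G12490 these levels are few reads, 5.5 to 53 counts per library in experiment 1.

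AT4G12510 and AT4G12520 overlapped between genotypes. AT4G12520 had 52.7 to 63.1 CPM in myb67 and 39.4 to 70.1 CPM in WT in experiment 1, and 0.444 to 5.94 CPM in myb67 and 1.28 to 5.01 CPM in WT in experiment 2. AT4G12510 had 3.12 to 7.87 CPM in myb67 and 2.69 to 6.09 CPM in WT in experiment 1, and 0.185 to 3.66 CPM in myb67 and 0.0655 to 2.54 CPM in WT in experiment 2. This held for both genes in both experiments. Over both experiments, their log2 fold changes of myb67 over WT were -0.03 ± 0.25 for AT4G12520 and 0.28 ± 0.38 for AT4G12510 (SE). AT4G12530 had 0 to 4.5 counts in every library and was too low to be fitted.

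AIR1 was far lower in experiment 2 than in experiment 1 in both genotypes. In experiment 1 it had 34.1, 45.1, 44.5, 45.2, 36.6 and 33.0 CPM in myb67, against 53.7, 49.2, 47.1, 42.2, 39.2 and 40.4 CPM in WT. In experiment 2 it had 0.407, 3.17, 2.83, 3.21 and 2.79 CPM in myb67, against 3.96, 8.53, 8.75, 8.79 and 14.4 CPM in WT. These levels are uncertain by the reads that AIR1 shares with AT4G12545, since the treatment of multi-mapping reads in either experiment is not stated and only the values of experiment 1 are in steps of 0.5. The groups overlapped in experiment 1, and in experiment 2 every myb67 library lay below every WT library. The log2 fold change of myb67 over WT was -0.19 ± 0.24 in experiment 1 and -1.83 ± 0.30 in experiment 2 (SE).

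**Figure D2:**
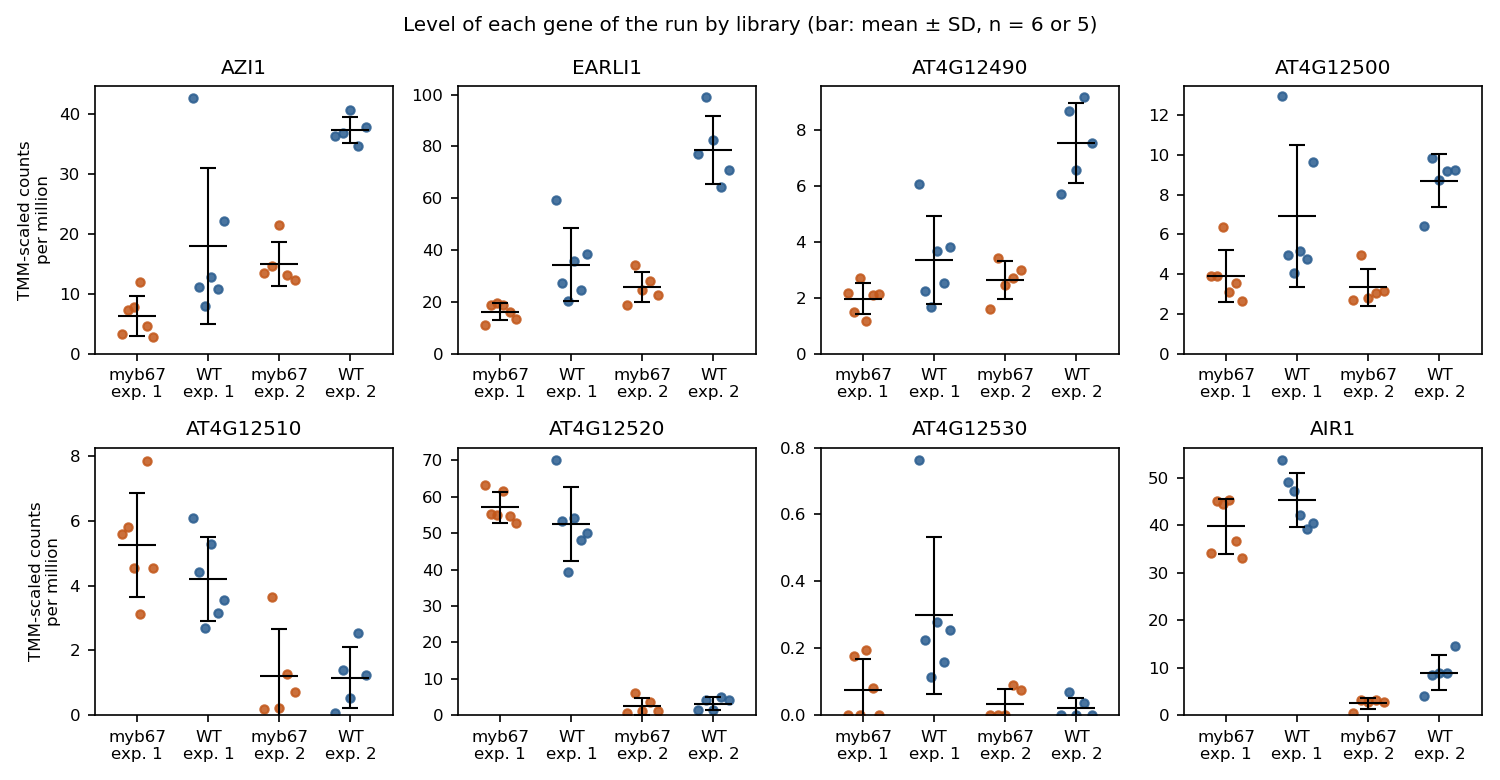
Level of each of the 8 genes in every library, in TMM-scaled CPM, for myb67 and WT libraries of experiments 1 and 2. Points are libraries, horizontal bars the mean and error bars the SD (n = 6 or 5), with axes that start at 0 and clip lower bars. EARLI1 does not overlap between genotypes in either experiment, with a narrow margin in experiment 1, while AT4G12520 and AIR1 are far lower in experiment 2 than in experiment 1.

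Within single experiments, 1 of the 7 fitted genes (EARLI1) was called lower in experiment 1, where 0.309% of all genes were, and 5 (AZI1, EARLI1, AT4G12490, AT4G12500 and AIR1) in experiment 2, where 0.706% were. Groups that did not overlap, with myb67 lower, were found for 1 gene of the run in experiment 1 and 5 in experiment 2, against 0.558% and 0.913% of all genes tested. These counts rest on the contrast that chose the genes, and the calls come from a fit without a replicate block. With the replicate number of experiment 2 as a block, edgeR called 1050 of 21683 genes in experiment 2, either direction, against 288 without it.

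Whether the genotype difference itself differed between experiments was tested with the interaction term of edgeR. Over all genes, 0.0692% were called, and 0 of the 7 fitted genes were. At an unadjusted p under 0.05 there were 2 genes, AIR1 and AT4G12490, where 8.81% of all genes passed, and DESeq2 called 0. For AIR1 the log2 fold change in experiment 2 minus that in experiment 1 was -1.64 ± 0.38 (SE), with an unadjusted p of 0.000281 and an adjusted p = 0.189 by edgeR's quasi-likelihood test. Replicate numbers paired the libraries of experiment 2, where libraries of the same number deviated together. With that number as a block, the AIR1 difference was -1.67 with an adjusted p = 0.000155 by edgeR, in a fit that called 2.64% of all genes. With blocks in both experiments it was -1.68 with an adjusted p = 0.00123 by edgeR, and 2.38% of genes were called. Without WT replicate 1 of experiment 2 and with no block, it was -1.84 with an adjusted p = 0.0225 by edgeR, and 0.106% of genes were called. The call on AIR1 therefore depends on the treatment of the replicate numbers and on 1 WT library. Its neighbour AT4G12545 gave an interaction of -1.46 ± 0.37 (SE), with an adjusted p = 0.253 by edgeR without a block and an adjusted p = 0.000493 with the block of experiment 2.

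For the 4 genes of the AZI1 end, the interaction was 0.11 ± 0.46 for AZI1, -0.59 ± 0.29 for EARLI1, -0.95 ± 0.35 for AT4G12490 and -0.68 ± 0.35 for AT4G12500 (SE, log2 scale). None of the 4 was called with or without the block, which does not show that the genotype difference was equal in both experiments.

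The run was set beside its neighbours on the chromosome. Of 22 flanking and intervening genes, 18 were fitted and 0 were called over both experiments by edgeR, 1 (AT4G12545) had an unadjusted p under 0.05, where 7.31% of all genes did, and DESeq2 called 0. Over all genes edgeR called 0.687% of all genes lower and 0.816% higher. Their log2 fold changes had a median of -0.02. The genes next to the run were level between genotypes, with log2 fold changes of 0.03 for ORP2B (AT4G12460), an oxysterol-binding protein relative, before AZI1 and 0.01 for CPR1 (AT4G12560), an F-box protein that restrains defence signalling, after AIR1. AT4G12540, which lies between members, was at -0.15 and AT4G12545 at -0.72. AT4G12545 had 29.9 to 40.8 CPM in myb67 and 30.9 to 51 CPM in WT in experiment 1, a difference of -0.18 ± 0.22 on the log2 scale (SE). In experiment 2 it had 0.444 to 2.98 CPM in myb67 and 3.11 to 9.75 CPM in WT, with a log2 fold change of -1.65 ± 0.29 (SE) and an adjusted p = 0.00251 by edgeR. TPPF and AT4G12432 had equal counts in all 22 libraries, so they are 1 measurement counted under 2 identifiers.

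**Figure D3:**
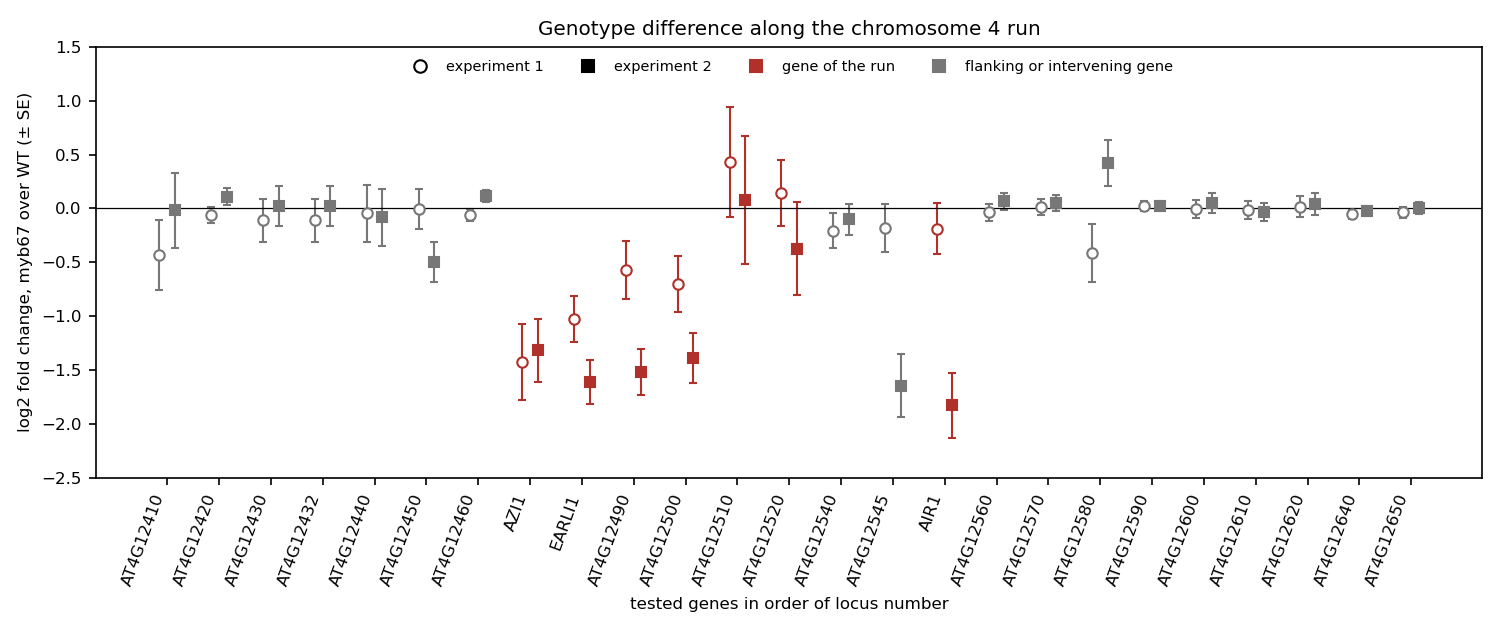
Log2 fold change of myb67 over WT for each fitted gene of the run (red) and its neighbours (grey), in order of locus number, in experiment 1 (open circles) and experiment 2 (filled squares), with SE. The 4 genes from AZI1 to AT4G12500 lie below 0 in both experiments, AT4G12545 and AIR1 are at -0.18 and -0.19 in experiment 1 and at -1.65 and -1.83 in experiment 2, and most flanking genes lie near 0.

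The experiments themselves differed in the run, and this difference was not used to choose the genes. The labels name no difference between the experiments other than their number, and the deposited values are in steps of 0.5 in experiment 1 and whole in experiment 2. The 16 photosynthesis genes moved with the experiment too, 16 of them called higher in experiment 2 in myb67 and 13 in WT, and their part in these differences was not tested. The root marker TIP2;3 was called lower in experiment 2, at a log2 fold change of -2.85 ± 0.36 in myb67 and -3.69 ± 0.38 in WT (SE, edgeR). The other root marker, PYK10, was not called, at 0.14 ± 0.08 in each genotype (SE, edgeR). Of the xylem genes 2 of 3, and of the phloem genes 2 of 2, were called higher in experiment 2 in each genotype. Of the suberin genes, 4 of 5 were called higher in myb67 and 1 of 5 in WT. The part of these markers was not tested either. In WT, the 3 genes AZI1, EARLI1 and AT4G12490 rose in experiment 2 relative to experiment 1, while AT4G12510, AT4G12520 and AIR1 fell. The log2 fold change of experiment 2 over experiment 1 in WT was 1.28 ± 0.30 for AZI1 (adjusted p = 0.000615), 1.28 ± 0.20 for EARLI1 (adjusted p = 5.2e-06) and 1.37 ± 0.23 for AT4G12490 (adjusted p = 1.16e-05, all edgeR). It was -1.81 ± 0.56 for AT4G12510 (adjusted p = 0.00656), -4.04 ± 0.38 for AT4G12520 (adjusted p = 3.63e-09) and -2.34 ± 0.26 for AIR1 (adjusted p = 4.38e-08, all edgeR). AT4G12500, at 0.51 ± 0.23, missed the threshold (adjusted p = 0.0535 by edgeR) and passed it in 6 of 29 alternatives. These p-values rest on the spread between libraries of a group. They take no account of how repeats of a whole experiment would vary.

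A change of this kind was common, since 37.2% of all genes were called higher and 33.5% lower in WT, so a call alone sets no gene of the run apart. By size, 0.286% of all genes had a WT log2 fold change as low as that of AT4G12520, 2.91% as low as that of AIR1 and 7.81% as high as that of AZI1. In the libraries labelled myb67, 38.7% of genes were called higher and 35.2% lower in experiment 2. AZI1 rose there by 1.39 ± 0.34 and EARLI1 by 0.69 ± 0.21 on the log2 scale, and AT4G12510 at -2.16 ± 0.56, AT4G12520 at -4.56 ± 0.40 and AIR1 at -3.99 ± 0.30 fell (SE, edgeR adjusted p of at most 0.00557 for these 5). AT4G12490 at 0.42 ± 0.26 and AT4G12500 at -0.17 ± 0.26 did not pass the test in these libraries.

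**Figure D4:**
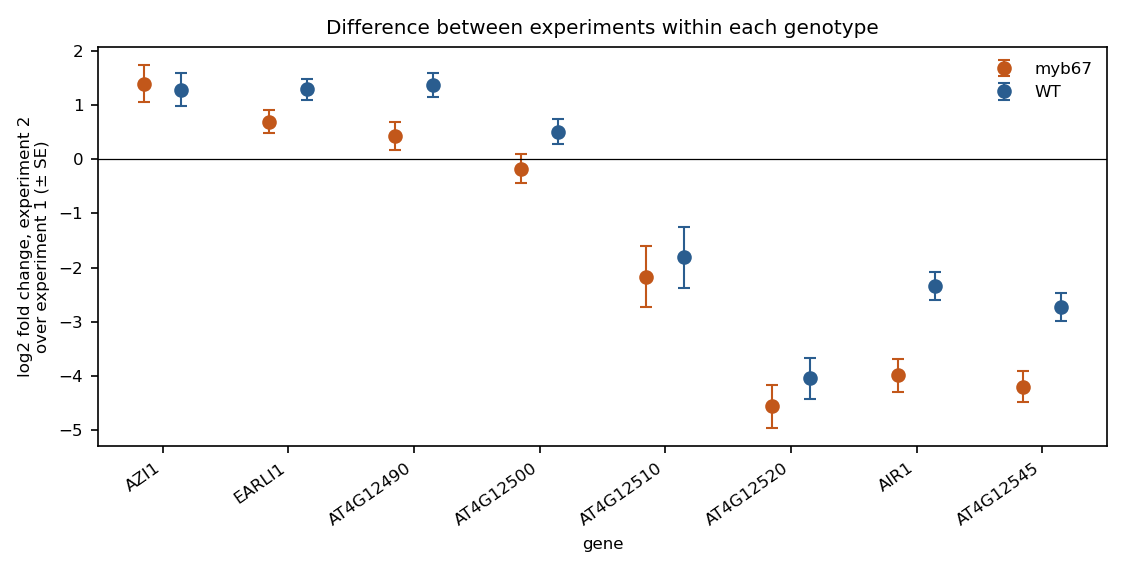
Log2 fold change of experiment 2 over experiment 1 within the libraries labelled myb67 (orange) and within WT (blue) for the 7 fitted genes of the run and AT4G12545, with SE. AZI1 and EARLI1 lie above 0 in both genotypes, and AT4G12510, AT4G12520, AIR1 and AT4G12545 lie below 0 in both.

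Levels per length of the annotated transcript changed order between experiments. In WT of experiment 2, EARLI1 was highest at 84.6 ± 14.2 CPM per kb and AZI1 next at 43.1 ± 2.55 CPM per kb, followed by AIR1 at 12.9 ± 5.38, AT4G12490 at 9.61 ± 1.83, AT4G12500 at 9.0 ± 1.38, AT4G12520 at 3.6 ± 1.96 and AT4G12510 at 1.43 ± 1.17 CPM per kb (SD, n = 5). In WT of experiment 1, AIR1 at 65.5 ± 8.17 and AT4G12520 at 59.9 ± 11.5 CPM per kb were highest, with AIR1 above AT4G12520 in 4 of 6 libraries. EARLI1 followed at 36.8 ± 15.1, AZI1 at 20.7 ± 15.1, AT4G12500 at 7.16 ± 3.70, AT4G12510 at 5.22 ± 1.63 and AT4G12490 at 4.25 ± 2.01 CPM per kb (SD, n = 6). Within single WT libraries, EARLI1 was above AZI1 in 5 of 5 in experiment 2 and in 6 of 6 in experiment 1. AIR1 was above AT4G12490 in 4 of 5 and AT4G12490 above AT4G12500 in 4 of 5 in experiment 2, and their SDs overlapped. In libraries labelled myb67, EARLI1 and AZI1 were at 27.6 ± 6.31 and 17.3 ± 4.29 CPM per kb in experiment 2 (SD, n = 5), and AT4G12520 and AIR1 led experiment 1 at 65.0 ± 4.81 and 57.5 ± 8.37 CPM per kb (SD, n = 6).

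Libraries of the near-identical pair also divided their reads differently. AT4G12510 took 16.7% to 39.6% of the summed counts of the pair in myb67 libraries and 4.88% to 33.7% in WT libraries of experiment 2. In experiment 1 it took 4.95% to 12.6% in myb67 and 6.18% to 8.86% in WT. The sums behind these shares were 17 to 236 counts in experiment 2 and 199.5 to 1031.5 in experiment 1, so the shares of experiment 2 carry a larger counting error.

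Some pairs of the run varied together within groups, after the mean of each group was subtracted from the log2 CPM. These values are descriptions over 22 libraries that share depth and preparation within an experiment. Pearson's r was 0.79 for AZI1 and EARLI1, 0.78 for AT4G12490 and AT4G12500, 0.88 for AT4G12510 and AT4G12520 and 0.91 for AIR1 and AT4G12545. Other pairs were lower, among them EARLI1 and AT4G12500 at 0.73, AT4G12510 and AT4G12545 at 0.69 and AIR1 and AT4G12520 at 0.68. AZI1 had r of -0.03 to AT4G12510, 0.08 to AT4G12520, 0.19 to AIR1, 0.31 to AT4G12490 and 0.63 to AT4G12500, and without WT replicate 1 of experiment 1 it was -0.03 to AT4G12490 and 0.43 to AT4G12500. Of the 4 pairs named first, all but AZI1 and EARLI1 share windows of sequence. Within experiment 2, pairs that share no window also had high r. It was 0.89 for AT4G12500 and AT4G12510 and 0.86 for AT4G12490 and AT4G12510. For AT4G12510 and AT4G12520, r was 0.53 over experiment 1 and 0.91 over experiment 2. The part of shared sequence in these values was not tested. For AZI1 and EARLI1, r was 0.92 over the 12 libraries of experiment 1 and 0.15 over the 10 of experiment 2. Without WT replicate 1 of experiment 1 it was 0.68 over 21 libraries. In those libraries r was 0.67 for AT4G12490 and AT4G12500, 0.69 for AT4G12510 and AT4G12545 and 0.68 for AIR1 and AT4G12520. The first 2 of the 4 pairs were then not set apart from the others.

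**Figure D5:**
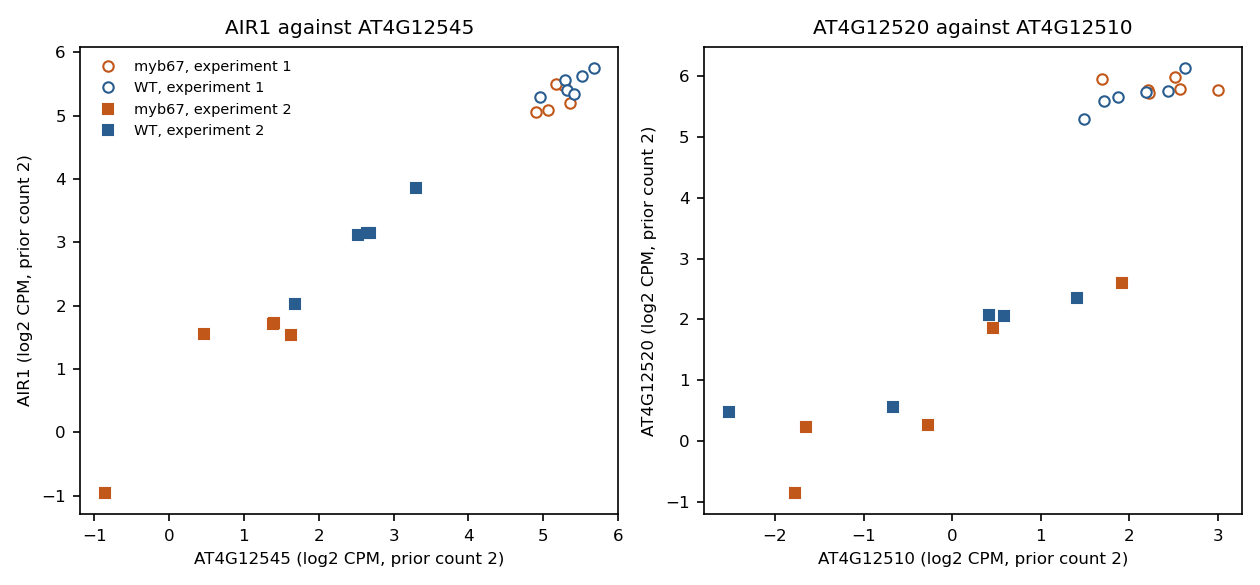
Log2 CPM of AIR1 against AT4G12545 (left) and of AT4G12520 against AT4G12510 (right) in each library, for myb67 (orange) and WT (blue) in experiment 1 (open circles) and experiment 2 (filled squares). Libraries of experiment 1 sit together at the top in both plots, and those of experiment 2 spread along a line, with myb67 replicate 1 lowest for AIR1 at 0.407 CPM.

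Outside the run, the genes whose within-group deviations were most like those of AZI1 were AT5G14920, RFI2, AT1G09460, AT5G19090 and AT1G21630, with r of 0.916 to 0.926 over 22 libraries. These were 0.865 to 0.881 without WT replicate 1 of experiment 1, when 3 of the 5 remained among the 5 most alike. For AIR1 they were RABA1e, AT4G12545, GSTF2, HLECRK and AT3G24420, with r of 0.90 to 0.914. None of these 10 genes was called between genotypes over both experiments, and their log2 fold changes ran from -0.72 (AT4G12545) to 0.16.

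Lists of related and pathway genes were set beside the run. Of 16 genes elsewhere that encode related cysteine-motif proteins, 13 were fitted and edgeR called 0 over both experiments, 1 (AT2G45180, at -0.60) had an unadjusted p under 0.05, against 7.31% of all genes, and DESeq2 called 0. Of 20 genes of azelaic acid signalling and systemic acquired resistance, 19 were fitted and edgeR called 0, 1 had an unadjusted p under 0.05 against the same 7.31%, and DESeq2 called 0. At an unadjusted p under 0.05 there were 4 of 19 in experiment 1, 5 in experiment 2 and 6 for the interaction, against 8.65%, 8.25% and 8.81% of all genes, and edgeR and DESeq2 called 0 in each. These fits held no replicate block. With the block of experiment 2, edgeR called 1050 of all genes in experiment 2 against 288 without it, and 573 against 15 for the interaction. The 0 calls here therefore do not show that these genes were level in experiment 2 or alike between experiments. The 1 over both experiments was PAD4, a lipase-like partner of EDS1 in defence signalling, at a log2 fold change of -0.25 ± 0.08 (SE), adjusted p = 0.181, and it was called with the block of experiment 2 (adjusted p = 0.00495 by edgeR). DIR1, a lipid-transfer protein that acts with AZI1 in systemic resistance, was at 0.13 ± 0.12 (SE). Of 16 auxin and lateral root genes, all fitted, 1 (IAA14) was called lower by edgeR, where 0.687% of all genes were. At an unadjusted p under 0.05 there were 2 of 16 in experiment 1, 4 in experiment 2 and 4 for the interaction. The shares of all genes were 8.65%, 8.25% and 8.81%, and edgeR without a block called 0, 1 and 0 of the 16. IAA14, a repressor of auxin-dependent lateral root initiation, had 8.32 to 12.3 CPM in myb67 and 10.9 to 16.4 CPM in WT in experiment 1, and 4.29 to 5.63 CPM in myb67 and 6.13 to 9.23 CPM in WT in experiment 2. The genotypes did not overlap in experiment 2. Its log2 fold change over both experiments was -0.41 ± 0.08 (SE, adjusted p = 0.00635 by edgeR). Between the experiments in WT, 6 of the 13 fitted related genes were called higher and 6 lower, AT4G22460 by -4.72 ± 0.49 and AT4G15160 by -4.38 ± 0.45 (SE, log2 scale) among them.

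The sequence ahead of the genes was searched on both strands for 5 motifs, from 250 bases before to 50 after the RefSeq transcription start. The W-box core TTGAC, the letters bound by WRKY factors, was found in 5 of 8 genes, AZI1, EARLI1, AT4G12490, AT4G12500 and AIR1, and in 50.5% of 27443 windows of the same length genome-wide. The MYB core CNGTTA was found in 4 of 8, AZI1, EARLI1, AT4G12510 and AT4G12520, against 30.3% of all windows. TGTCTC, the auxin response element, CACGTG, the G-box, and ACCNACC, the AC element, were found in 0 of 8, against 14.2%, 7.68% and 7.39%. In AZI1 and EARLI1 a MYB core and a W-box core stood 2 bases apart, and the stretch from 250 to 211 bases before the start is given with those letters in capitals (minus strand).
AZI1: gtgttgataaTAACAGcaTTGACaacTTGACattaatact
EARLI1: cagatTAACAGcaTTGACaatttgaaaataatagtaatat
The block TAACAGcaTTGAC is the same in both, with the MYB core read on the opposite strand. A match of letters is a description and says nothing of binding.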

How the data were processed

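Upper primary root mRNA was sequenced in 22 libraries. Per the file values, the authors deposited expected counts per gene in steps of 0.5 for experiment 1 (28.2% to 34.6% of values per library not whole) and raw counts for experiment 2, none normalized. Per the submitters' processing notes, STAR 2.7.10a, Trimmomatic 0.39, DESeq2 1.40.1, HOMER and FastQC were used and the build was TAIR10, without a stated role. The counting of strand and of multi-mapping reads and the reason for the steps are not given in the sources used here. The authors' deposited comparison, per the file headers, holds log2 fold changes, their standard errors, adjusted p-values and a mean expression signal, and its log2 fold changes are quoted once.

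Expected counts were rounded to whole numbers. filterByExpr on the 4 groups kept 21683 of 33323 genes, and TMM scaled the libraries (factors 0.709 to 1.05). edgeR's quasi-likelihood test gave the genotype difference with experiment as a term, and 4 group means gave each experiment, the interaction and the differences between experiments. Genes with an adjusted p under 0.05 (Benjamini-Hochberg, every tested gene included) were called. Levels are TMM-scaled CPM, with a prior count of 2 on the log2 scale. Each library pooled about 40 seedlings. No replicates were duplicates (mean chi-square per gene at least 2.15). The fit was also run on simulated counts, drawn independently for each library. These held no pairing by replicate number, so they do not show how the fit does with paired libraries. The genes and lists were chosen with earlier results of these data known. Named genes were the 8 genes of the run, MYB67, listed or flanking genes called over both experiments, genes between members, and the 5 most alike to AZI1 and to AIR1 with a mean of at least 1 CPM. Other genes named from the lists (PAD4, DIR1, ORP2B, CPR1, TPPF and 3 related genes) were chosen after their values were seen.

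The deviations from group means of libraries with the same replicate number correlated across genes at 0.284 to 0.671 in experiment 2 and at -0.158 to 0.0430 in experiment 1. With above 0.1 taken as paired, the numbers pair the libraries of experiment 2. Alternatives were RLE scaling, no filter, DESeq2, replicate blocks, unrounded values, AT4G12510 and AT4G12520 summed, and leaving out libraries. Correlations without WT replicate 1 of experiment 1 were added after the data were seen. Sequences came from RefSeq assembly TAIR10.1, a later release than the authors' build, so no positions on the chromosome are given. Coding sequences were aligned globally with Biopython (match 2, mismatch -1, gap open -5, gap extension -0.5). The tools were edgeR 4.0.16 and DESeq2 1.42.0 in R 4.3.3.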

Additional observations from a re-analysis of the deposited data

Results flagged for a closer look

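In 28 groups of 5 or 6 libraries (7 fitted genes in 4 groups), 4 held a library whose distance from its neighbour was large for the range of the group, by Dixon's criterion, and chance alone gives about 1 in 20. AZI1 was at 21.4 CPM in myb67 replicate 3 of experiment 2, where the other 4 libraries had 12.3 to 14.6 CPM. AT4G12500 was at 6.35 CPM in myb67 replicate 3 of experiment 1, against 2.64 to 3.89 CPM in the other libraries of that group, and at 4.96 CPM in myb67 replicate 2 of experiment 2, against 2.7 to 3.17 CPM. AIR1 was at 0.407 CPM in myb67 replicate 1 of experiment 2, against 2.79 to 3.21 CPM. That library also had the highest summed photosynthesis level of its group, 3468 CPM, and the part of this in the AIR1 value was not tested.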

How the results depend on the processing

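The count of 4 genes called lower over both experiments was 4 to 5 under 31 alternatives, and every called value kept its direction. In experiment 1, 1 gene of the run was called, against 2 with DESeq2, 2 without the 3 libraries of fewest counts, and 0 to 2 when single libraries were left out, 0 of them without myb67 replicate 1 and 2 without WT replicate 3 or myb67 replicate 4. In experiment 2, 5 genes were called, against 4 without myb67 replicate 1, 4 or 5. AT4G12500, just outside the threshold between WT of the experiments, passed it without WT replicate 1 or 6 or myb67 replicate 3 of experiment 1, without WT replicate 1 of experiment 2, and without each set of 2 or 3 libraries left out together. For the interaction, 0 genes were called, against 1 (AIR1) with a replicate block in experiment 2, 1 with a replicate block in both experiments and 0 to 1 when single libraries were left out, with AIR1 at -1.84 to -1.37 over 31 alternatives. Of the resistance genes, 0 were called, against 1 (PAD4) with either replicate block. The replicate block changed no other call of these lists over both experiments except AIR1, and the cause of these changes was not tested.

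Values that changed sign were uncalled throughout. The AZI1 interaction was -0.178 to 0.332 when single libraries were left out, and that of AT4G12510 was 0.166 without WT replicate 4 of experiment 2 (-1.289 to 0.166 over 31 alternatives). The differences between experiments were not run under the replicate block, since blocks lie within experiments, and the summed pair gave no value for AT4G12520 alone. AT4G12490 in experiment 1 and the pair AT4G12510 and AT4G12520 in experiment 2 are limited by few reads. Each p-value sets a difference against the spread between these libraries.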
